A study of Drosophila melanogaster and Drosophila virilis and Drosophila yakuba with 44 samples.

Results

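L1 is a cultured cell line of Drosophila melanogaster, given as cmel1 in the sample labels, and a line of this name (CME L1) is known to derive from a larval leg imaginal disc. Imaginal discs are the epithelial sacs of the larva that grow and are patterned to form adult appendages, and they carry myoblasts and hemocytes (insect blood cells) on their surface. Cells of such lines have divided in culture for many generations, so that they need not keep the transcripts of the tissue that they came from. The gene expression of L1 was compared with that of the 9 other lines of the same atlas: OSS, S2R+, GM2, mbn2, BG3, D4, D16-c3, D20, and D32. By their names, mbn2 is known as a line from larval blood cells, BG3 from the larval central nervous system, D16-c3, D4, D32, and D20 from imaginal discs, OSS from the somatic sheath of the ovary, and GM2 and S2R+ from embryos. The labels give no sex, passage, or treatment for any line, and nothing beyond the name of the line. Tissue and embryo libraries of the series served for scaling and side values, and the labels give whole flies of both sexes as 2-5 days old.

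Genes were included with at least 10 RPM (reads per 1000000 reads of the library, scaled with trimmed mean of M-value, or TMM, factors) in L1 or in the median of the 9 other lines. This rule took 6316 of the 13458 genes in the table, or 46.9%, which are called expressed genes here. Of these, 5357 reached the minimum on both sides, 478 only in L1, and 481 only in the median. Just inside the minimum were 140up, Mppe, CG15423, CG15914, and CG1598, each with 91 reads or 10.1 RPM in L1. Just outside were Meics, CG11902, sNPF-R, CG7593, and Pu, with a median of 9.95 RPM in the other lines and between 3.76 and 7.62 RPM in L1.

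The measurements were made by 3′-seq, in which reads are captured at the junction of the 3′ end and the poly(A) tail, so that the reads on a gene count its polyadenylated transcripts without regard to their length. Each line contributed 1 library. A comparison of 1 library against 9 cannot reach a permutation p below 0.1, so no difference was tested, and each value of L1 was read against the spread of the other lines by its rank. L1 had the deepest library of the lines, with 9793900 reads counted on genes, whereas the 9 others had between 477958 (BG3) and 7433317 (D4), with a median of 3326404. Where a gene had no read, up to 3 reads could have been missed by chance in counting, and these were worth 0.33 RPM in L1 and between 0.41 and 4.52 RPM in the other lines, and ratios were taken with every value raised to this floor. Floors and intervals cover counting error only. The 10 most abundant genes took 8.89% of the L1 reads.

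The median expressed gene was slightly higher in L1 than in the median of the other lines, by 0.29 on the log2 scale. This shift depended on the scaling, since it was 0.15 with TMM factors from the 10 lines alone, 0.07 with the median ratio method, and -0.01 with library totals. With the main scaling it also moved with the minimum, to 0.25 at 5 RPM, 0.35 at 20 RPM, and -0.23 with no minimum. Counts of higher and lower genes moved with the scaling. Medians of gene groups are given here relative to the median expressed gene, whereas their 4-fold and rank counts are not. Counted relative to it, 222 expressed genes were 4-fold higher and 230 were 4-fold lower. The list of leg disc genes then had 1 gene 4-fold higher in place of 2. The list of Hedgehog, Wingless, and Dpp signalling had 4 genes 4-fold lower in place of 2. Between the 25th and 75th percentiles, the log2 ratios lay between -0.31 and 0.80, and 4692 genes (74.3%) were inside 2-fold of the median expressed gene.

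In L1, 288 of the 6316 expressed genes (4.56%) were at least 4-fold above the median of the other lines, and 151 (2.39%) were at least 4-fold below it. The higher genes were 65.6% of these calls, against 45.7% with library totals, 55.3% with TMM factors from the 10 lines, and 50.3% with the median ratio method. In all 4 scalings, 216 genes were called higher and 149 lower. Of the 288 genes, 186 reached 10 RPM in L1 and not in the median, and of the 151, 117 reached it in the median and not in L1, which the rule makes likely. Among the 5357 genes at the minimum on both sides, 102 (1.9%) were 4-fold higher and 34 (0.635%) 4-fold lower.

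L1 was the highest of the 10 lines for 1134 expressed genes (18%) and the lowest for 280 (4.43%). With library totals, 647 genes (10.1%) had L1 as the highest line and 513 as the lowest. It was at least 2-fold above every other line, or stood apart above, for 112 genes (1.77%), and at least 2-fold below every other line, or stood apart below, for 44 (0.697%). Among the 5357 genes at the minimum on both sides, L1 was the highest line for 969 (18.1%) and the lowest for 190 (3.55%), and it stood apart above for 54 (1.01%) and apart below for 10 (0.187%). In all 4 scalings, 62 of the expressed genes stood apart above and 44 apart below. When each other line was set against its own 9, the genes 4-fold higher numbered between 163 (D16-c3) and 664 (GM2), and those 4-fold lower between 72 (D4) and 611 (BG3). By both counts, L1 was thus inside the range of the other lines. The number of genes that stood apart in them was between 42 (D16-c3) and 295 (OSS) above and between 14 (D4) and 469 (BG3) below. Within L1, ranks 2 to 9 held between 408 and 902 genes each, and 12 of the expressed genes had no read in L1.

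**Figure D1:**
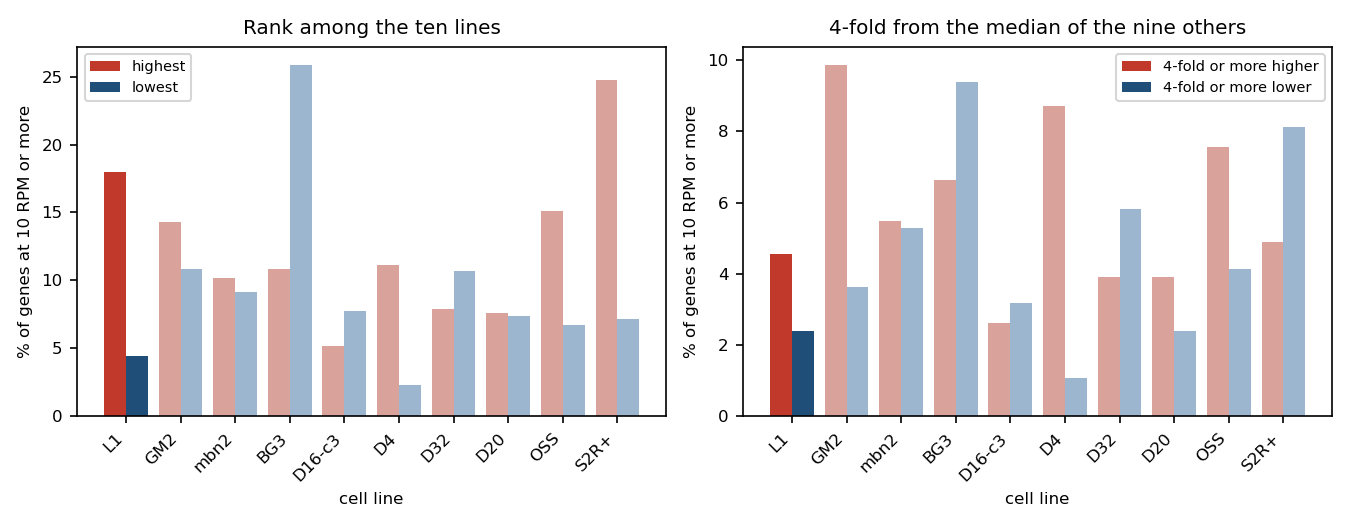
Share of the genes at 10 RPM or more (y axes, in %) for which each cell line (x axes) was the highest or the lowest of the 10 lines, and for which it was 4-fold above or below the median of the 9 others. Red bars show highest or higher and blue bars lowest or lower; the dark pair is L1, with 18% highest and 4.43% lowest on the left and 4.56% higher and 2.39% lower on the right, and the pale pairs are the other lines.

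The genes with the highest ratios in L1 included a homeotic gene, Sex combs reduced (Scr), the Hox gene that specifies the labial and first thoracic segments. Scr lies at chr3R:6823120-6849981 of dm6 on the minus strand, where short noncoding genes overlap it on both strands, and the counting is not stated to use strand. It had 345 RPM in L1, against 35.8 in GM2, 35.6 in D4, 28.6 in BG3, 9.67 in D20, 9.00 in OSS, 5.49 in mbn2, 3.44 in D16-c3, 1.39 in D32, and no read in S2R+. L1 was therefore 9.64-fold above the next line and 38.3-fold above the median, and no other line came near it. The other Hox genes did not show this pattern. Antp, the Hox gene of the thorax, had 31.9 RPM in L1 and a median of 36.1 RPM in the other lines (range 4.50 to 174), and Ubx, of the posterior thorax and first abdominal segment, had 21.8 against 34 RPM (6.05 to 106). L1 held rank 7 and rank 6 for these, inside the spread of the others. Of the Hox cofactors, homothorax (hth) had 425 RPM in L1, below BG3 (832) and D4 (752) and above a median of 97.6 RPM. Extradenticle (exd) had 239 RPM in L1 and between 78.4 and 205 RPM elsewhere, highest in L1 except with library totals, where L1 was second. The remaining genes of this list, lab, pb, Dfd, abd-A, and Abd-B, were below the minimum.

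The highest ratios among genes that stood apart above otherwise belonged to enzymes, a tubulin, a regulator of early embryonic divisions, and genes known by number only. Ugt36Bc, a UDP-glycosyltransferase at chr2L:16799025-16801584, had 262 RPM in L1 and 38 RPM in mbn2, and the other lines had 2.33 RPM or less. Arginine kinase (Argk), which buffers ATP in muscle and other tissues with high energy use, had 1017 RPM in L1. In the other lines it had between 4.30 (D16-c3) and 300.2 (mbn2), so that L1 was 3.39-fold above the next line. Giant nuclei (gnu), a regulator of the PNG kinase that drives the early embryonic divisions, had 70.9 RPM in L1 and at most 2.12 RPM in any other line. The tubulin alphaTub85E had 34.6 RPM in L1 and at most 1.52 RPM elsewhere. CG7009, a tRNA methyltransferase, had 39.1 RPM in L1 and at most 0.750 RPM elsewhere. For these genes the other lines were at or near 0, and the shallow BG3 library, with a floor of 4.52 RPM, set the smallest difference that the data allow, at least 15.7-fold for gnu, 7.64-fold for alphaTub85E, and 8.64-fold for CG7009.

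Other genes with high ratios have no role that could be given here. CG6836, at chr3L:18950629-18955406, had 185 RPM in L1 and at most 11.8 RPM (OSS) elsewhere, so that L1 was 15.6-fold above the next line. CG9416 had 151 RPM in L1, 19.9 RPM in OSS, and 16.4 RPM in D4, and less than 1 RPM in the 7 others. It overlaps CG10051 on the opposite strand. CG8620 had 291 RPM in L1 and 108 RPM in GM2, with a median of 11.1 RPM over the other lines. CG34331 (57.7 RPM in L1), CG7881 (39 RPM), and CG11638 (41.1 RPM) had at most 4.30, 7.20, and 4.78 RPM in any other line, in this order. CG11638 overlaps other genes on both strands. A pair of neighbours on chr3R was shared with GM2: CG11671 (chr3R:8287876-8288613) had 168 RPM in L1 and 55.7 RPM in GM2, and CG11672 (chr3R:8289395-8290578) had 187 and 91.7 RPM. CG11672 had no read in 5 of the other lines, but it was less than 2-fold above GM2 in other scalings. The same held for CG14082 on chr3L, with 722 RPM in L1 and 321 RPM in GM2 against a median of 6.19 RPM, a gene that overlaps Spn75F on the same strand.

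**Figure D2:**
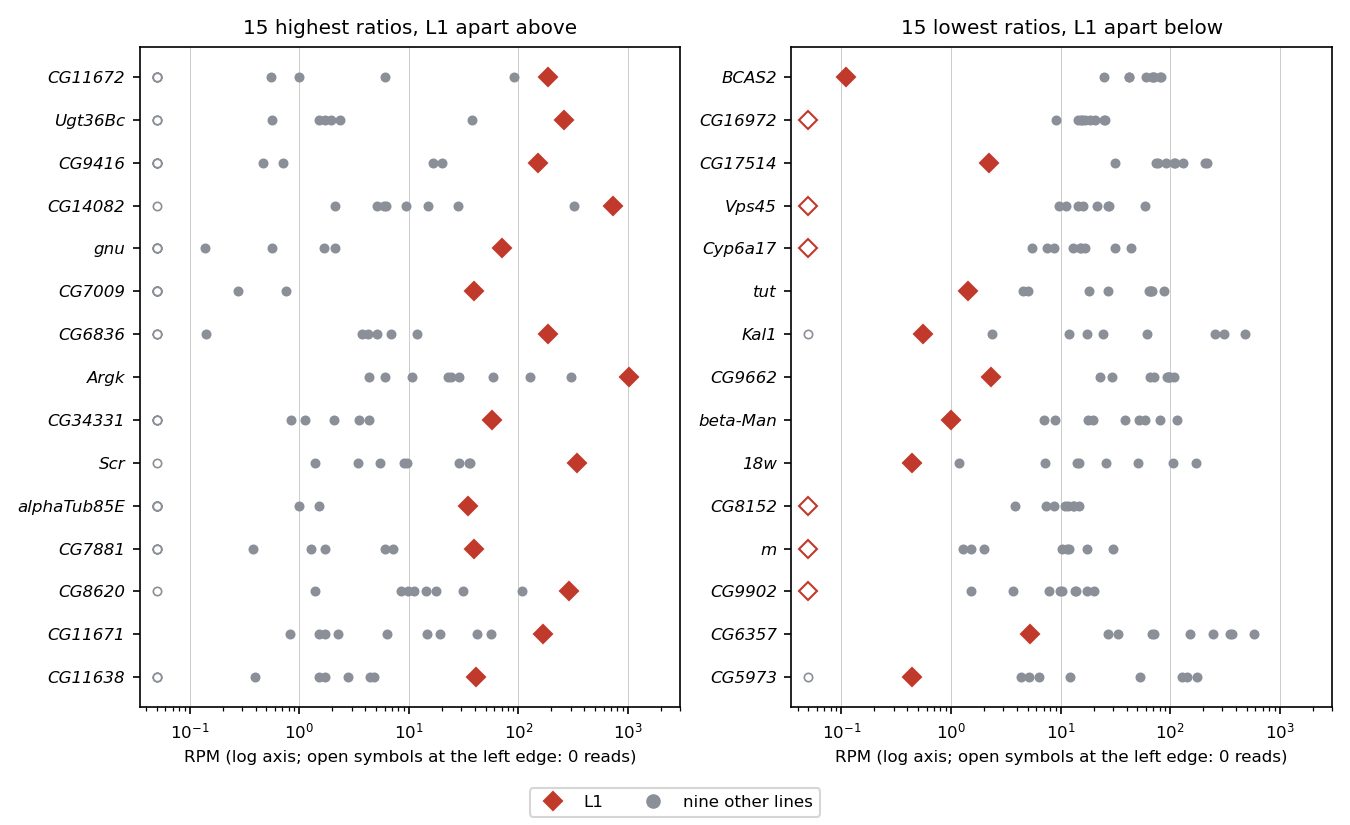
RPM on a log axis of the 15 genes with the highest (left) and the 15 with the lowest (right) ratio of L1 to the median of the other lines, among those for which L1 stood apart. Red diamonds show L1, grey points the 9 other lines, and open symbols at the left edge stand for 0 reads, where diamonds hide the points of other lines without reads (Vps45, CG8152, and m). Scr had 345 RPM in L1 and at most 35.8 RPM in any other line, and BCAS2 had 1 read in L1 and at least 25 RPM in each other line.

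Further genes that stood apart above are described for their known roles, and were chosen after their values were seen. Among secreted signals, Pvf2, a ligand of the PDGF/VEGF receptor that supports the growth and survival of hemocytes, had 1799 RPM in L1. The next lines were GM2 with 399.6 and mbn2 with 337 RPM, and the median was 91.5 RPM. Hence, Pvf2 was 4.50-fold above the next line. In the trafficking of guidance receptors, comm2, of the commissureless family, had 153 RPM in L1 and at most 51.3 RPM elsewhere (BG3), and was not 2-fold above BG3 in every scaling. The muscle determination factor nautilus (nau) had 64.9 RPM in L1 and at most 25.3 RPM (D20). A subunit of the nicotinic acetylcholine receptor, nAChRalpha6, had 789.5 RPM in L1 and at most 186 RPM (D4). Of genes for blood cell functions, the scavenger receptor Sr-CIV had 71.9 RPM and the prophenoloxidase PPO3 81 RPM in L1, with at most 16.1 and 24.5 RPM in other lines. Foraging (for), a cGMP-dependent kinase, had 232 RPM in L1 and at most 83.2 RPM elsewhere. Ornithine aminotransferase (Oat) had 324 RPM in L1 and at most 91 RPM elsewhere. The aminopeptidase grsm had 1147 RPM in L1 and at most 317 RPM elsewhere. No line overlapped L1 for any of these genes, which is how they were chosen. Of these, Pvf2, Sr-CIV, and nau overlap another gene on the opposite strand.

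The lowest gene in L1 was BCAS2, a component of the spliceosome, at chr3R:27921283-27922356. It had 1 read in L1, or 0.110 RPM, whereas the other lines had between 25 (D32) and 82.7 RPM (S2R+), with a median of 67.8. The ratio was 614 times lower in L1, with a counting interval from 110.3 to 24263 at 95%. It was taken here from the 1 read itself, whereas with the floor the log2 ratio was -7.68. BCAS2 was a steadily expressed gene in all other lines, so that L1 alone differed. Several more genes without any read in L1 had reads in other lines. CG16972 had between 9.05 and 25.6 RPM in all 9 others and was at least 50.9-fold lower in L1. Cyp6a17, a cytochrome P450, had between 5.52 and 43.9 RPM in the others and was at least 45.4-fold lower in L1. CG9902 had between 1.51 and 20.3 RPM and was at least 30.8-fold lower in L1. Vps45, which acts in membrane fusion at endosomes, CG8152, and miniature (m), a protein of the apical extracellular matrix, were also without a read in L1. They were at least 48.7-fold, 32.8-fold, and 31.2-fold below the medians, in this order, but Vps45 and CG8152 had no read in BG3 either, and m none in D32. For these 3 genes, L1 stood below the line without reads only through the lower floor of its deeper library. CG16972, m, Kal1, beta-Man, and CG5973 each overlap a gene on the opposite strand.

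Other genes were detected in L1 at levels well below the other lines. CG17514 had 2.21 RPM in L1 and between 31.6 and 217 RPM elsewhere, and CG9662 had 2.32 RPM and between 23.1 and 109.6 RPM. L1 was 14.3-fold and 9.97-fold below the lowest other line for them. CG6357 had 5.30 RPM in L1 and between 27 and 578 RPM elsewhere. Beta-mannosidase (beta-Man), a lysosomal enzyme, had 0.994 RPM in L1 and a median of 38.8 RPM in the others, and tumorous testis (tut), an RNA-binding partner of Bam in the male germline, had 1.44 RPM and a median of 64 RPM. For 18w, Kal1, and CG5973 L1 was not separated from D32. The first, 18w, a receptor of the Toll family, had 0.442 RPM in L1 against a median of 14.8 RPM, Kal1, the homologue of human anosmin, 0.552 against 24.4 RPM, and CG5973 0.442 against 12.1 RPM. In D32, 18w had 1 read and the others had none, so that L1 counted as below D32 only through the D32 floor of 1.39 RPM, and L1 had reads of Kal1 and CG5973 where D32 had none. Of the 44 genes, 36 had 3 or more counts in each other line and 6 had no read in L1.

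Glutathione S-transferases, which detoxify electrophiles, were among the remaining genes that stood apart below, described here after their values were seen. GstE6 had 17.8 RPM in L1 and between 46.7 and 489 RPM elsewhere, and its neighbour GstE7 had 1.88 RPM and between 13.3 and 196 RPM. GstE1 of the same cluster went the other way, with 286 RPM in L1, the highest of all lines, and a median of 51.7 RPM (range 0.392 to 202). Glycogen synthase (GlyS) had 8.84 RPM in L1 and at least 37.5 RPM elsewhere, and slit (sli), the ligand of the Robo receptors, had 3.31 RPM and at least 8.78 RPM. For DNA synthesis, RnrS, the small subunit of ribonucleotide reductase, had 56.2 RPM in L1 and between 147 and 776 RPM elsewhere. Ataxin-2 (Atx2), a translational regulator, had 71.1 RPM in L1 and at least 175 RPM elsewhere, and the zinc finger factor schnurri (shn) had 39.7 and at least 83.7 RPM. The expressed genes next to the 44 on the chromosome were examined also. Of 87 places beside these genes, 8 held a gene that also stood apart below. These were genes of the 44 that lie side by side: beta-Man and aux, aux and DhpD, GstE6 and GstE7, and RnrS and rho-7. Each such pair was counted from both sides, so the 8 places are fewer separate genes. The 0.697% of all expressed genes that stood apart below is not counted in this way. Of the 87 places, these pairs included, 56 (64.4%) held a gene inside 2-fold of the median expressed gene, as compared to 74.3% of all expressed genes. The median over the places was -0.28 relative to the median expressed gene on the log2 scale.

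The label was then checked against markers of leg discs and of other tissues and cell types. Of 22 leg disc genes, 11 were expressed, 4 of these were above the median expressed gene, and their median was -0.54 relative to it on the log2 scale. Of the defining markers, Dll, dac, and btd were near the floor. Distal-less (Dll), which specifies the distal leg, had 1.66 RPM in L1 and at most 13.8 RPM in any line, and btd had 0.221 RPM. Dachshund (dac), of the middle leg, had 1.21 RPM in L1 and a median of 14.2 RPM elsewhere (0.924 to 46.1), rank 9, and the ventral appendage factor Sp1 had 12.1 RPM and rank 5. Both bric à brac genes of the leg segments were low, with 11.2 RPM for bab1, the lowest of the lines, and 7.29 RPM for bab2, against medians of 44.9 and 37.9 RPM. By contrast, rotund (rn), which acts in the leg and the wing, was highest in L1 with 183 RPM. OSS had 72 RPM and the median was 29.6 RPM. Of the genes of the proximal leg, hth (425 RPM in L1, at rank 3) was 4-fold or more above the median, and teashirt (tsh) had 31.8 RPM against a median of 14.4 RPM at rank 4. In all, 2 of the 11, rn and hth, were 4-fold higher and 4, dac, bab1, bab2, and ap, were 4-fold lower (4.56% and 2.39% of all expressed genes). For hth this held with the main scaling only. Its log2 ratio was between 1.71 and 1.87 in the other scalings, and it was at rank 4 with library totals. The whole leg list summed to 756 RPM in L1 and to between 323 and 1945 RPM in the other lines. Hence Dll, dac, and both bab genes were near the floor or low in the library labelled cmel1, hth, tsh, and rn were not, and the origin in the leg rests on the name of the line.

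Markers of other parts of the discs differed from gene to gene. Of 21 wing genes, 8 were expressed, 2 of these were above the median expressed gene, and their median was -0.46. The whole list summed to 519 RPM in L1, below the 556 to 873 RPM of the other lines. Pannier (pnr), a GATA factor of the dorsal body wall, had 3.42 RPM in L1, close to OSS (2.25 RPM) and below GM2 (22.4 RPM), whereas the other 7 lines had between 163 and 474 RPM. Apterous (ap), the selector of dorsal wing fate, is counted in the leg list above and not in this one. It was lowest in L1 with 1.77 RPM, against a median of 16.1 RPM and up to 338 RPM in D32. Rn, described above, is on both lists and was the only 4-fold higher gene of the wing list. Vestigial (vg) and nubbin (nub), of the wing blade, had 7.73 and 2.76 RPM, and scalloped (sd), their partner, 206 RPM at rank 4. For the myoblasts of the discs, twist (twi), their defining factor, had 302 RPM in L1, second to D4 (468 RPM), and at most 32.4 RPM in the other lines. The fibroblast growth factor receptor heartless (htl), also a gene of mesoderm, had 40.3 RPM in L1 and 62.2 RPM in D4, followed by D32 with 22.2 RPM. In turn, Mef2, the muscle differentiation factor, was low, with 25.6 RPM and rank 9 against a median of 106 RPM, as was the muscle protein gene bt (4.53 against 23.3 RPM). Him had 0 RPM, and stumps, the adaptor that acts downstream of htl, had 2.21 RPM against a median of 30.2 RPM. Of 22 genes in this list, 13 were expressed, with a median of -0.42, and the list summed to 2480.1 RPM in L1 and between 1843 and 3686 RPM elsewhere.

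Hemocyte genes divided into high and low groups in L1. Of the 19 genes listed, 15 were expressed, of which 7 were 4-fold or more above the median of the other lines and 3 were 4-fold or more below. Of the 7, PPO1, PPO2, NimB4, and NimB5 were included through their level in L1 and not through the median. Of the 478 genes included in that way 186 were 4-fold higher, so that nothing is read from this count. Hemese (He), a surface glycoprotein of hemocytes, had 552 RPM in L1, 210.3 in GM2, 199 in D16-c3, and 179 in D20, and at most 35.4 RPM in the others. Peroxidasin (Pxn), which crosslinks collagen IV and is made by hemocytes, had 2095 RPM in L1, 1086 in mbn2, and at most 458 RPM elsewhere, so that L1 was the highest line for both. The prophenoloxidases of crystal cells were second to D16-c3, with 13.1 RPM in L1 and 60.2 RPM in D16-c3 for PPO1, and 54.7 and 757 RPM for PPO2. The Nimrod genes NimB4 (20.9 RPM) and NimB5 (49.2 RPM) were at rank 4 and 3. Nplp2 had 375 RPM in L1 and rank 5, as the other lines ranged from 0.375 to 4723 RPM (D20). Its log2 ratio of 2.43 became -0.63 when BG3, D4, D32, OSS, or S2R+ was left out, so its direction rests on the choice of lines. Against D16-c3, D4, D32, and D20 alone, the log2 ratios were -1.09 for Nplp2 and -0.31 for NimB4. On the low side, the phagocytosis receptors Sr-CI (19.9 against a median of 169 RPM) and draper (drpr, 32 against 130.2 RPM), and Ama (13.6 against 69.6 RPM), were 4-fold below. Hemolectin (Hml) and NimC1, which define plasmatocytes, had 4.31 and 2.21 RPM in L1, below the minimum, while Hml had 1259 RPM in mbn2. The blood GATA factor serpent (srp) had 129.9 RPM in L1 at rank 8, and its partner ush 77 RPM at rank 9. The whole list summed to 4339 RPM in L1, inside the 650.4 to 9211 RPM of the other lines.

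Markers of neurons, glia, ovary, fat body, and trachea were low or ordinary in L1. The pan-neuronal gene elav had 43.3 RPM in L1 and between 19.7 and 43 RPM in the others, and was at rank 4 or 5 in the other scalings. Only 1 of the 9 expressed neuronal genes was above the median expressed gene, and this was Syt1, not elav. Syt1 had a log2 ratio of 1.73 at rank 3, or rank 4 in the other scalings. The blood-brain barrier receptor moody was lowest in L1, with 5.41 RPM against a median of 95.5 RPM. Traffic jam (tj) and piwi, which act in the somatic cells of the ovary, had 1.10 and 3.53 RPM in L1, against 622 and 419 RPM in OSS. Of the fat body and trachea genes, apolpp alone was expressed, with 29.6 RPM in L1. These lists held 9, 6, 5, and 1 expressed genes with medians of -0.74, -0.37, -1.27, and 0.92, in the order neurons, neural progenitors and glia, ovary, and fat body and trachea. Their sums in L1 were 331, 779, 382, and 45.6 RPM, in the same order, of which that of the ovary list was below all other lines (576 to 2437 RPM) and the others were inside the range of the lines.

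**Figure D3:**
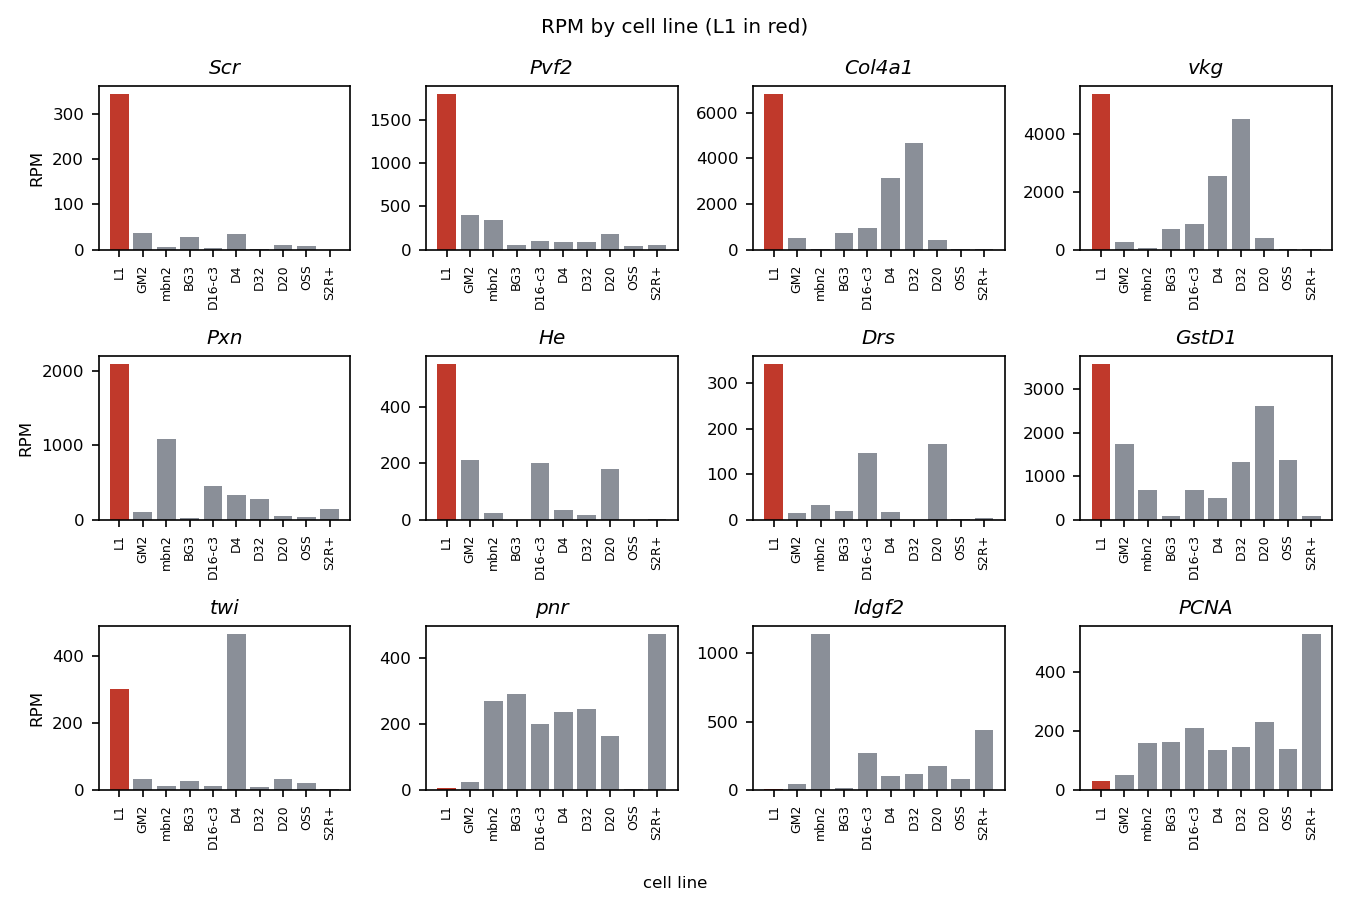
RPM (y axes, linear and starting at 0) of 12 genes by cell line (x axes), with L1 in red and the 9 other lines in grey. Scr, Pvf2, Pxn, He, Drs, and GstD1 were highest in L1, Col4a1 and vkg were shared with D32 and D4, twi with D4, and pnr, Idgf2, and PCNA were low in L1.

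Genes of the basement membrane, the sheet of matrix under epithelia, included some of the most abundant transcripts of L1. Collagen IV is built from the chains of Col4a1 and viking (vkg), and both were highest in L1. Col4a1 had 6838 RPM in L1, 4695 in D32, 3157 in D4, 929 in D16-c3, 742 in BG3, 498 in GM2, 432 in D20, 38.4 in OSS, 29.4 in mbn2, and 6.19 in S2R+. Vkg had 5383 RPM in L1, 4503 in D32, and 2559.7 in D4, and between 9.28 and 868 RPM in the others. L1 and D32 were close for both, and D32 was ahead of L1 for vkg with TMM factors from the 10 lines and with the median ratio method. The lines thus spread over orders of magnitude, with L1, D32, and D4 at the upper end. Other matrix proteins had L1 in the middle of the lines. The laminin chains LanA, LanB1, and LanB2 had 646, 968, and 530.3 RPM in L1, at rank 5, 6, and 5. SPARC, a collagen-binding glycoprotein, had 4458 RPM in L1, below D4 (8993) and mbn2 (6073). Perlecan (trol) had 278 RPM at rank 4. Papilin (Ppn) had 783 RPM in L1, below D32 (12327) and D20 (1946), and its log2 ratio was -0.74 against D16-c3, D4, D32, and D20 alone.

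Receptors and proteases of the matrix varied likewise. The integrin alpha chain inflated (if) was highest in L1 with 114.5 RPM, above OSS with 80.4, while the alpha chain mew had 13.9 RPM and rank 9 and the alpha chain scb 53.3 RPM and rank 5. ItgaPS4 was below the minimum. The shared beta chain mys had 428 RPM and rank 3. Glutactin (Glt) was 4-fold below the median, with 40.8 against 175 RPM, and the matrix metalloproteinases Mmp1 and Mmp2 had 141 and 65.9 RPM in L1, both at rank 8. In all, 5 of 22 expressed genes of the list were 4-fold higher and 1 was 4-fold lower, against 4.56% and 2.39% of all expressed genes. The 5 were Col4a1, vkg, Pxn, Ppn, and if, of which Pxn is counted in the hemocyte list too. With library totals, if was short of 4-fold, at a log2 ratio of 1.82. The list's median was -0.28 relative to the median expressed gene and 8 genes were above it. The list summed to 23395 RPM in L1, where the other lines had between 4569 and 31424 RPM.

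Innate immunity genes included some antimicrobial peptides with high levels and regulators with low levels in L1. Drosomycin (Drs), an antifungal peptide induced by the Toll pathway, had 343 RPM in L1, 166 in D20, 146 in D16-c3, and at most 31.4 RPM in the others, with no read in D32. Other peptides were at rank 2 or 3 in L1, behind D20 in most cases. AttB had 29.5 RPM in L1 and 85 in D20, AttD 33.1 and 39 RPM, DptB 39 and 229 RPM, and CecC 28.1 and 91.3 RPM. CecA1 had 11.2 RPM in L1 and was highest in mbn2 with 67.4 RPM. The copies of the attacin and cecropin genes are nearly identical, so that reads may be divided between them. All 6 peptides were 4-fold or more above the median of the other lines, although CecA1 was not in every scaling. Nothing is read from this number, since the 5 peptides other than Drs were included through their level in L1 and not through the median, as were 478 genes of which 186 were 4-fold higher. The other peptide genes of the list, such as AttA, AttC, Def, and Mtk, were below the minimum in L1 and in the median. Toll (Tl), the receptor, had 15 RPM in L1, the lowest of the lines, with a median of 78.2 RPM, and cactus (cact), the inhibitor of the pathway, was also lowest in L1, with 47.3 against 94.7 RPM. The factors dl and Dif had 28.8 and 35.2 RPM at rank 9 and 6. The recognition proteins PGRP-SA (172 RPM, rank 2) and PGRP-LC (13.3 RPM, rank 8) were at opposite ends. The median of the list was -0.07.

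Among the 28 lists in the plot of gene lists, heat shock and stress genes had the highest median of those with more than 1 expressed gene. Of 23 expressed genes, 21 were above the median expressed gene, 7 were 4-fold higher than the median of the other lines (4.56% of all expressed genes), and none was 4-fold lower (2.39%). The list's median was 0.86. Of the 7, 3 were Hsp70 copies and the others were Hsp26, GstD1, GstE1, and GstD2, of which GstD2 was included only through its level in L1. With library totals, GstD1 was just short of 4-fold, at a log2 ratio of 1.97. The sum of the list, 21101 RPM, was the highest of the lines, where the others had between 7605 and 16122 RPM. Glutathione S-transferase D1 (GstD1), which responds to oxidative stress, had 3592 RPM in L1, 2619 in D20, and a median of 691 RPM. Xbp1, the transcription factor of the unfolded protein response, was highest in L1 with 2460.4 RPM, followed by GM2 with 1695 and a median of 1156 RPM. Crc, the Drosophila ATF4, had 629 RPM and Gadd45 166 RPM in L1, both highest with the main scaling but not with the others. The chaperone Hsc70-4 had 5402 RPM in L1, close to D32 (5025 RPM), and was not the highest line in the other scalings. The chaperone of the endoplasmic reticulum, Hsc70-3, had 592 RPM at rank 2. Hence none of the genes highest in L1 was a heat-inducible one.

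Heat-inducible genes had an order of their own. Hsp26 had 722 RPM in L1, 959 in BG3, 732 in D4, 633 in mbn2, and at most 106 RPM in the others. Hsp70Ba had 99.6 RPM in L1, 593 in BG3, 230.4 in mbn2, 163 in D4, and at most 44.3 RPM in the others, and for Hsp70Ab (141 RPM in L1) and Hsp70Bc (68.7 RPM) the same 3 lines were above L1. L1 was thus at rank 4 for these 3 Hsp70 genes and at rank 3 for Hsp26. For the Hsp70 genes it was behind BG3, D4, and mbn2. The Hsp70 copies are nearly identical and their separate values are uncertain. Hsp83 had L1 in the middle of the lines, with 4195 RPM in L1 and between 2447 and 6679 RPM elsewhere. GstD2 was second in L1 with 27.6 RPM, behind GM2 with 238. Keap1, the inhibitor of the oxidative stress factor Cnc, was low with 12.6 RPM at rank 9, and cnc itself had 314 RPM at rank 2. How the cultures were handled before RNA extraction is not given for any line and was not tested.

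**Figure D4:**
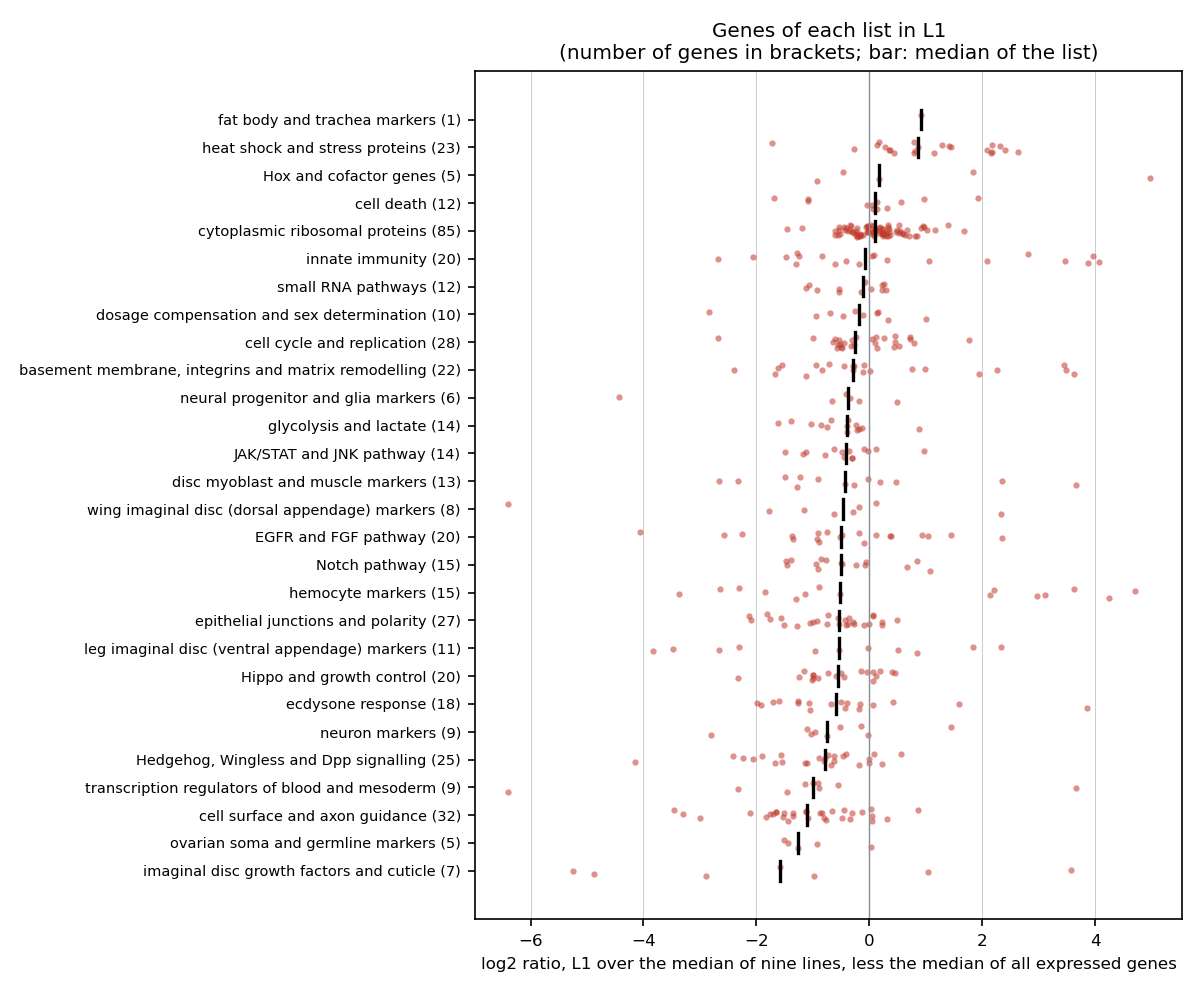
Log2 ratio of L1 to the median of the 9 other lines, less the median of all 6316 expressed genes (x axis), for the expressed genes of 28 lists (y axis, number of genes in brackets). Each point is a gene and each black bar a list's median, which was 0.86 for heat shock and stress proteins, -1.10 for cell surface and axon guidance genes, and -1.58 for imaginal disc growth factors and cuticle genes.

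Signalling pathways of the discs mostly lay below the median expressed gene, as did most of the 28 lists. Medians above it were held only by the lists of Hox, heat shock, cell death, ribosomal protein, and fat body and trachea genes. Of 25 expressed genes of Hedgehog, Wingless, and Dpp signalling, 4 were above it, and their median was -0.78. Most ligands were below the median of the other lines. Hedgehog (hh) had 0.994 RPM in L1 and a median of 14.3 RPM in the others, wingless (wg) 6.96 against 12.5 RPM, decapentaplegic (dpp) 3.53 against 13.6 RPM, and Wnt4 2.87 against 12.5 RPM. The ligand gbb, of the BMP family like dpp, had 39 against 30.1 RPM at rank 4, and Wnt5 17.8 against 20.1 RPM at rank 6. Hh and Wnt4 were 4-fold lower, and for none of these ligands was L1 the lowest line. The Hedgehog receptor patched (ptc) and the factor cubitus interruptus (ci) had 15.7 and 49.9 RPM, at rank 6 and 7. Armadillo (arm), the beta-catenin, had 756 RPM at rank 3.

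For receptor tyrosine kinases, the EGF receptor (Egfr) had 3.20 RPM in L1 and a median of 15.6 RPM in the others (0 to 72), while its ligand spitz (spi) had 323 RPM at rank 3. Sprouty (sty), a feedback inhibitor induced by these receptors, had 2889 RPM in L1, second to mbn2 (6984 RPM), against a median of 1149 RPM, and the inhibitor argos (aos) had 82.7 RPM at rank 3. The list of 20 expressed genes had a median of -0.50, with 7 above the median expressed gene. In the Notch pathway, Notch (N) and Delta (Dl) had 219 and 9.17 RPM, at rank 5 and 8. The subunits of gamma-secretase, which cuts Notch and other membrane proteins, were on the high side. Presenilin (Psn) had 313 RPM in L1, close to S2R+ (304 RPM), which was ahead with library totals. The next subunit, pen-2, had 193 RPM, above D4 (131 RPM), and aph-1 had 50.1 RPM at rank 3, whereas nct, the remaining subunit, had 40.3 RPM at rank 8. The 15 expressed genes had a median of -0.50, and none was past 4-fold.

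JAK/STAT and JNK genes (14, median -0.41), Hippo and growth control (20, median -0.55), and epithelial junctions and polarity (27, median -0.54) held 2, 6, and 5 genes above the median expressed gene. Among these, dachs (d), a myosin of the Hippo pathway, was lowest in L1 with 2.65 RPM against a median of 10.9 RPM, and E-cadherin (shg) had 5.52 RPM at rank 7. The ligand upd3, its receptor dome, and the kinase hpo had 22.2, 29.5, and 26.9 RPM, all at rank 6 or 7. In the ecdysone response, 4 of 18 expressed genes were above the median expressed gene. The receptor EcR had 91 RPM at rank 7, and broad (br), an early target, was lowest in L1 with 142 RPM against 281 RPM. Eip71CD, a methionine sulfoxide reductase that ecdysone induces, was in turn highest in L1, with 295 RPM, 184 RPM in GM2, and a median of 16.8 RPM.

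Apart from the marker lists, the lowest were those of secreted chitinase-like factors and of surface proteins. Idgf2, an imaginal disc growth factor of hemolymph and cuticle, stood apart below with 4.64 RPM in L1, against a median of 112 RPM and up to 1145 RPM in mbn2. Idgf1 had 5.08 RPM at rank 9, and Idgf3 97.1 RPM at rank 7, as was Idgf6. Idgf4 was highest in L1, but at 21.5 RPM. Of 7 expressed genes in this list, 2 were above the median expressed gene and 3 were 4-fold lower (2.39% of all expressed genes). The list's median was -1.58. Among 32 expressed genes of cell adhesion and axon guidance, 5 were above the median expressed gene. Of the 32, 3 were 4-fold lower (2.39% of all expressed genes) and none was 4-fold higher (4.56%). L1 was the lowest line for 6, against 4.43% of all expressed genes. These, named for their rank after their values were seen, were fasciclin 1 (Fas1, 22.6 against a median of 204 RPM), sli (3.31 against 21.6), otk (2.10 against 16.9), frazzled (fra, 15.9 against 37.7), PlexA (107 against 149), and klg (17.2 against 30.5). For PlexA the nearest line, GM2 with 109.7 RPM, was hardly different. The list's median was -1.10. Regulators of blood and mesoderm (9 expressed) had 1 gene, twi, above the median expressed gene.

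Proliferation genes did not shift together. Of 28 expressed genes of the cell cycle and replication, 13 were above the median expressed gene, with a median of -0.25. String (stg), the Cdc25 phosphatase that starts mitosis, had 1513 RPM in L1 and 1445 RPM in D16-c3, above a median of 362 RPM, and D16-c3 was ahead in the 3 other scalings. Aurora B (aurB), of chromosome segregation, had 158 RPM, above S2R+ (126 RPM). PCNA, the sliding clamp of DNA polymerase, was the lowest of the lines with 30.2 RPM in L1, against 48.9 RPM in GM2 and between 134 and 529 RPM in the 8 others. The Mcm helicase genes that were expressed, however, were at ranks from 2 (Mcm5, 91 RPM) to 7 (Mcm3, 39.1 RPM), and were not low together with PCNA and RnrS. Of 12 cell death genes, 8 were above the median expressed gene, and reaper (rpr), which antagonizes Diap1, was 4-fold higher with 28.9 RPM at rank 4.

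In central metabolism, triose phosphate isomerase (Tpi, 36.3 against a median of 91 RPM) and trehalase (Treh, 21.9 against 46.9 RPM) were lowest in L1, and 1 of 14 expressed glycolytic genes, Glut1, was above the median expressed gene. For dosage compensation, msl-2, the subunit that males alone translate, was lowest in L1 with 5.19 RPM, against a median of 30.4 RPM (range 9.37 to 67.4), and the other subunits msl-1, msl-3, mle, and mof were at ranks from 2 to 6. Of 12 expressed genes of small RNA pathways, 5 were above the median expressed gene and none was past 4-fold. Cytoplasmic ribosomal protein genes, a check of the scaling, had a median of 0.09 over 85 expressed genes, with 50 above the median expressed gene. L1 was highest for 16, or for 8 with library totals, near the shares of 18% and 10.1% over all expressed genes.

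The most abundant transcripts of L1 were those for translation. RpL41 had 14887 RPM, RpS3 12484 RPM, Ef1alpha48D 10924 RPM, and RpS19a 10109 RPM, followed by pAbp, awd, RpL13A, RpLP2, RpS23, and Col4a1, which had 6838 RPM. Of these, all except Col4a1 had at least 452 RPM in each other line, while Col4a1 had as little as 6.19 RPM. Awd, a nucleoside diphosphate kinase, was the other gene for which L1 was highest, with 8789 RPM against 8107 RPM in D4 and a median of 3708 RPM. Ef1alpha48D was at rank 8.

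The position of genes on the chromosomes was examined in windows of 50 neighbouring expressed genes, for the 6272 genes (99.3%) that have a place in the dm6 annotation. A stretch of 3L was high in L1, from mnd at 14985100 to fal at 19298830, or 4.31 Mb. Its 230 expressed genes had a median of 0.68 on the log2 scale relative to the median expressed gene, or 1.61-fold, and 179 of them (77.8%) were above it. Over the 195 genes at 10 RPM on both sides the median was 0.57. The 9 other lines had medians between -0.29 (D32) and 0.08 (GM2) over the same stretch. L1 was the highest line for 104 of the 230 genes (45.2%), against 16.9% of the expressed genes outside it, and the lowest for none. Of the genes that stood apart above, 17 lay there (7.39% of its genes, against 1.56% outside), including CG14082, CG6836, comm2, SsRbeta (1557 RPM in L1 and a median of 323 RPM), mbf1 (363 and 90.2 RPM), Arl1 (299 and 89.8 RPM), and AIMP2 (300.1 and 80.4 RPM). Eip71CD and rpr, described above, are also inside it. The ends of the stretch were set by the L1 values themselves, so these numbers describe it and test nothing. The number of gene copies was not measured in these data.

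Other lines had such stretches too. A window was counted as high or low when its median was past 1.5-fold from the line's own median. In L1, 180 of 5964 windows were high, all on 3L, and 12 were low, on 2L and 2R, whereas the other lines had between 38 (D32) and 344 (BG3) high windows and between 10 (D4) and 251 (GM2) low ones. L1 was inside these ranges, and its windows spanned -0.71 to 0.78. The low windows of L1 covered 55 expressed genes at chr2L:15039488-16743100, from Su(H) to LSm7, with a median of -0.47. At chr2R:10893034-12027707 they covered 55 as well, with a median of -0.66. Over the 2L stretch the other lines had medians between -0.43 (S2R+) and 0.81 (D16-c3), so that S2R+ was close to L1. Over the 2R stretch they had medians between -0.29 (D20) and 0.44 (S2R+). Of the genes described above, Idgf1, Idgf2, and Idgf3 lie side by side in the 2L stretch, and RnrS, rho-7, and shn lie in the 2R stretch. The small chromosome 4 was low as a whole. Its 61 expressed genes had a median of -0.77 in L1, 51 (83.6%) were below the median expressed gene, and L1 was the lowest line for 9 of them. GM2 (-0.63) and D20 (-0.44) were low for this chromosome as well, and BG3 (0.63) and D16-c3 (0.58) were high, so that L1 was the lowest of a wide range. The gene bip2 on this chromosome stood apart below, with 20.9 RPM in L1 and at least 58.8 RPM elsewhere. PlexA, ci, bt, and apolpp, described above, lie on chromosome 4 as well.

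**Figure D5:**
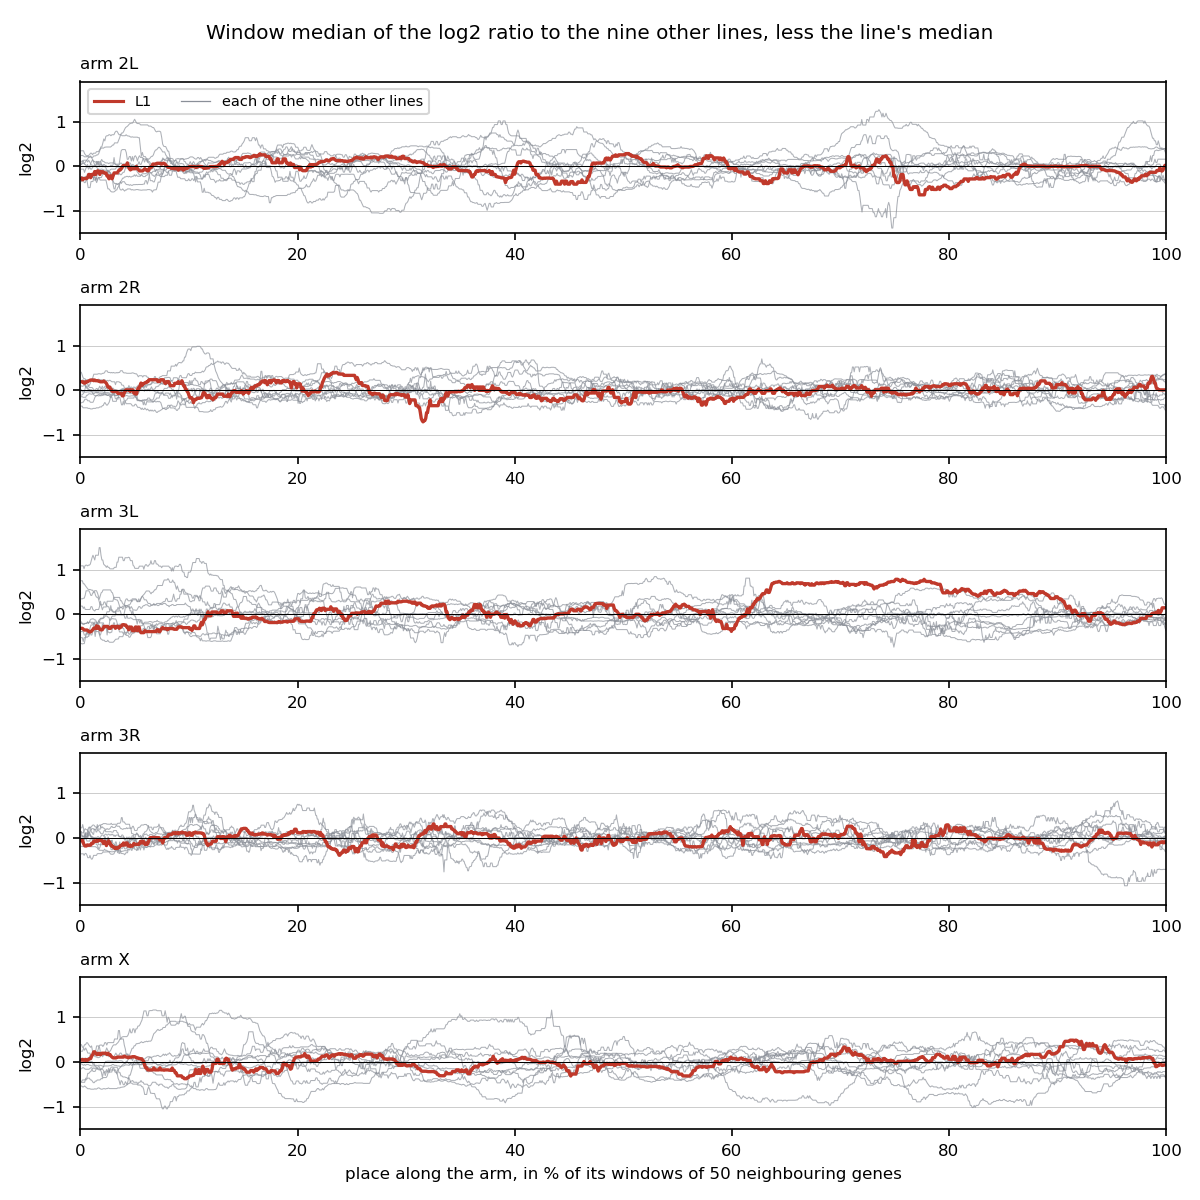
Median of the log2 ratio over windows of 50 neighbouring expressed genes, less the median of the line (y axes), against place along each chromosome arm in % of its windows (x axes). The red line is L1 and each grey line is one of the 9 other lines set against its own 9; the L1 line stayed between -0.71 and 0.78 and was highest over the stretch of 3L described in the text.

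By the ranks of all 6316 genes, L1 was most like the disc lines. Spearman's rank correlation with L1, across genes, was 0.775 for D32, 0.766 for D20, 0.751 for D16-c3, 0.749 for D4, 0.744 for S2R+, 0.741 for mbn2, 0.688 for OSS, 0.681 for GM2, and 0.628 for BG3. The values of D16-c3, D4, S2R+, and mbn2 were close together, and the genes were chosen in part by their L1 values. The 36 pairs of other lines had values between 0.635 and 0.837 with a median of 0.728. Genes are not independent replicates, and BG3, with the lowest value, also had the shallowest library.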

How the data were processed

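3′-seq libraries were prepared by the authors from total RNA that was chemically fragmented and primed with oligo-dT, and sequenced on a HiSeq platform. Per the labels, the processing used HISAT2 and Trimmomatic 0.36, and the study's methods name featureCounts over an extended annotation of dm6. The deposited table holds raw counts of reads per gene for 23 libraries, 1 per sample. Strand handling is not given in the sources used here. RPM were computed with TMM factors over all 23 libraries (edgeR 4.0.16 in R 4.3.3), and ratios in Python 3.11.15 with numpy 2.4.6 and pandas 2.3.3, after values were raised to 3 counts per library. L1 (labelled cmel1) was set against the median of the 9 other lines. Genes were called at 4-fold, and L1 stood apart at 2-fold beyond every other line. Each line had 1 library, so no difference was tested.

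Named genes were the 15 highest and 15 lowest ratios among those standing apart, the 10 most abundant in L1, the first 4 genes of the 28 lists and their members past 4-fold or standing apart, 5 genes on each side of the minimum, and leading genes of windows of 50 genes. Others were named after their values were seen, as were the genes named as highest or lowest line. Members and lists were chosen with earlier results of these data known. Gene positions came from the Ensembl annotation of dm6. Alternatives were other scalings (library totals, TMM over the 10 lines, and the median ratio method), minimums, pseudocounts, references, depths, overlapping genes, and leaving out each line. Floors and intervals cover counting error only, and the series' 13 tissue and embryo libraries were used only for the scaling and for side values.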

Additional observations from a re-analysis of the deposited data

How the results depend on the processing

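With library totals in place of TMM factors, 258 genes were 4-fold lower, 64 stood apart above, 81 stood apart below, and L1 was the highest line for 647. With the median ratio method 71 genes stood apart above. A minimum of 5 RPM gave 236 genes 4-fold lower, a minimum of 20 RPM left 29 apart below, and no minimum took 11485 genes, of which 751 were 4-fold lower and 143 apart below. Adding 5 RPM to each value left 188 genes 4-fold higher, 61 4-fold lower, and 19 apart below. Against the median of D16-c3, D4, D32, and D20 alone, 279 genes were 4-fold lower. With L1 divided by its median ratio, an alternative chosen after seeing the data, 230 genes were 4-fold lower, 64 apart above, and 78 apart below, and L1 was highest for 581. Leaving out each other line in turn gave between 6288 and 6379 expressed genes, 263 to 289 genes 4-fold higher, 144 to 204 4-fold lower, 114 to 148 apart above, 47 to 63 apart below, and 1174 to 1432 with L1 highest. The cause of these differences was not tested, except that a lower or higher minimum and fewer lines change which genes and lines enter.

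For 536 named genes, 11028 ratios under the alternatives were compared with the main ones, of which 6848 moved by less than the counting error of the L1 count, 4172 moved by more, and 8 were called 4-fold and changed sign. These were Nplp2 (-1.09), NimB4 (-0.31), and Ppn (-0.74) against the 4 disc lines, and Nplp2 without BG3, D32, OSS, or S2R+ (-0.63) or without D4 (-0.63), where it was 2.50 without each of the others. Ratios near the floor were limited by depth, mainly in BG3. No paired analysis was possible because each line has 1 library.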

Other observations

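Genes of the secretory pathway were examined because several stood apart above in L1, and these lists were made after the values were seen, so they describe L1 and test nothing. Of 18 expressed genes for translocation into the endoplasmic reticulum, 17 were above the median expressed gene, and L1 was the highest line for 12 of them (12 with library totals), against 18% of all expressed genes (10.1% with library totals). Their median was 0.87 relative to the median expressed gene, or 1.83-fold. Sec61alpha, the channel, had 2028 RPM in L1 against 1333 RPM in mbn2, the next line, and SsRbeta, of the translocon-associated complex, had 1557 RPM in L1 against 593 RPM in mbn2. Of 28 expressed genes for transport between the endoplasmic reticulum and the Golgi, 26 were above the median expressed gene, L1 was the highest for 16 (13 with library totals), and their median was 0.56. Of the genes of both lists, SsRbeta, Arl1, and zetaCOP lie in the high stretch of 3L, as does Pdi of the collagen list that follows. The retrieval receptor KdelR had 1214 RPM in L1 against 826 RPM in mbn2, whereas p24-1 was at rank 8 with 36.4 RPM.

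The 7 genes for making collagen IV, which include Col4a1, vkg, and SPARC already described, had a median of 1.46, and 6 were above the median expressed gene. Plod, which hydroxylates lysines of collagen, had 1779 RPM in L1 against 846 RPM in D4, the next line, and PH4alphaEFB, which hydroxylates prolines, had 275 RPM in L1 against 196 RPM in D32. Tango1, which loads collagen for export, was at rank 7 with 66.8 RPM.

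In each of the 13 tissue and embryo libraries of the series, the genes standing apart above in L1 reached 10 RPM less often than all expressed genes did. The share of the 112 genes was between 47.3% (embryos of 0 to 45 min and 2 other embryo libraries) and 75% (male whole flies), against 82.6% and 91% of all expressed genes in embryos of 0 to 45 min and in male whole flies. Of the 112, 9 (8.04%) were under 10 RPM in all 13, against 44 (0.697%) of all expressed genes. These shares are a description, since the 112 were chosen for low values in the other lines. The embryo library of 45 to 90 min had 42379 counted reads, so that 3 counts there were worth 35.8 RPM.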
